A study of Mus musculus with 6 samples.

Results

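Titin, the myomesins and the proteins that scaffold the thick filament were examined as 9 genes, Ttn, Obsl1, Myom1, Myom2, Myom3, Mybpc3, Nebl, Nrap and Tcap, chosen by their symbols among the 22063 genes of the authors' deposited table. All 9 passed the filter on low counts, which left 13117 genes. RNA came from heart muscle cells isolated by Langendorff perfusion (enzyme solution run through the coronary vessels) from wild-type (WT) mice. The AKG group (3 libraries) had been injected daily for 2 weeks with α-ketoglutarate (300 mg/kg/d), a metabolite of the citric acid cycle, and the Control group (3 libraries) with PBS. The labels name P21 both for the injected mice and for the mice whose hearts were taken, and do not say whether a library was 1 mouse or a pool, so p-values measure only the spread between these libraries, which may be technical.

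Titin is a giant elastic protein that spans from the Z-disc, the border of the sarcomere, to the M-band at its centre. At the Z-disc its end is capped by telethonin, the product of Tcap, and at the M-band it is tied to the product of Obsl1 and to the myomesins, which cross-link neighbouring myosin filaments. Cardiac myosin-binding protein C (Mybpc3) sits on the thick filament and tunes myosin. Nebulette (Nebl) belongs to the nebulin family and binds thin filaments near the Z-disc, and the nebulin-related anchoring protein (Nrap) acts where myofibrils assemble and end at the cell membrane.

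Levels are given in CPM, counts as a share of the library on a fixed scale, after scaling with TMM factors (trimmed mean of M-values), which sets the bulk of genes equal between libraries. The median log2 fold change of all tested genes, AKG over Control, was then 0.0029. Without TMM, on library totals, it was 0.45, so that every fold change below moves up by about this shift. The libraries held 14402876 to 15315236 counts in AKG and 16241120 to 17797368 in Control, and mitochondrially encoded transcripts took 25.7% to 31.4% of counts in AKG and 38.3% to 43.1% in Control.

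The libraries were not alike in other respects. The summed CPM of 4 Y-linked genes was 39.0 to 89.2 in AKG, and in Control it was 0.311 in Control 2 beside 168 and 176 in the other Controls. Of 10 adult heart muscle cell markers, 9 were called lower in AKG, beside 25.2% of all tested genes. On library totals 7 were called lower and 1 higher, beside 9.12% and 56.7% of all tested genes. The summed level of the 10 markers was 33809 to 37259 CPM in AKG and 72508 to 78570 CPM in Control. The 6 atrial markers summed to 461 to 939.7 CPM in AKG and 92.1 to 151 CPM in Control. In AKG 2, Nppa alone stood at 454 CPM, beside 5.59 CPM of Myl4 and at most 0.621 CPM of Sln, Bmp10 or Mybphl. Within AKG the atrial myosin light chain Myl7 stood at 138 CPM in AKG 1, 1.12 CPM in AKG 2 and 88.0 CPM in AKG 3, against at most 4.15 CPM in a Control. The fast skeletal myosin genes Myh1, Myh2 and Myh4 had at most 1 count in any library. The part of Y-linked and atrial transcripts in the results below was not tested. Leaving out 1 library at a time cannot test the atrial part, since AKG 1 or AKG 3 always remains. In bulk RNA, fewer cells of a type and less RNA per cell cannot be told apart.

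AKG libraries held far more transcript of Myom2, the M-protein gene, and less of Ttn, Tcap and Nebl relative to the bulk of genes. Of the 9 genes, 1 was called higher and 3 lower at an adjusted p under 0.05 in edgeR's quasi-likelihood test, and 5 were not called. Over all tested genes 25.0% were called higher and 25.2% lower, so the share of these genes that was called, 4 of 9, lies close to the 50.2% called over all genes in either direction. On library totals 4 were called higher and 1 lower, where 56.7% of all genes were called higher and 9.12% lower. Only Myom2 and Tcap were called in the same direction under both scalings. The median log2 fold change of the 9 genes was -0.05, and 0.39 on library totals, each near the median of all genes.

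**Figure D1:**
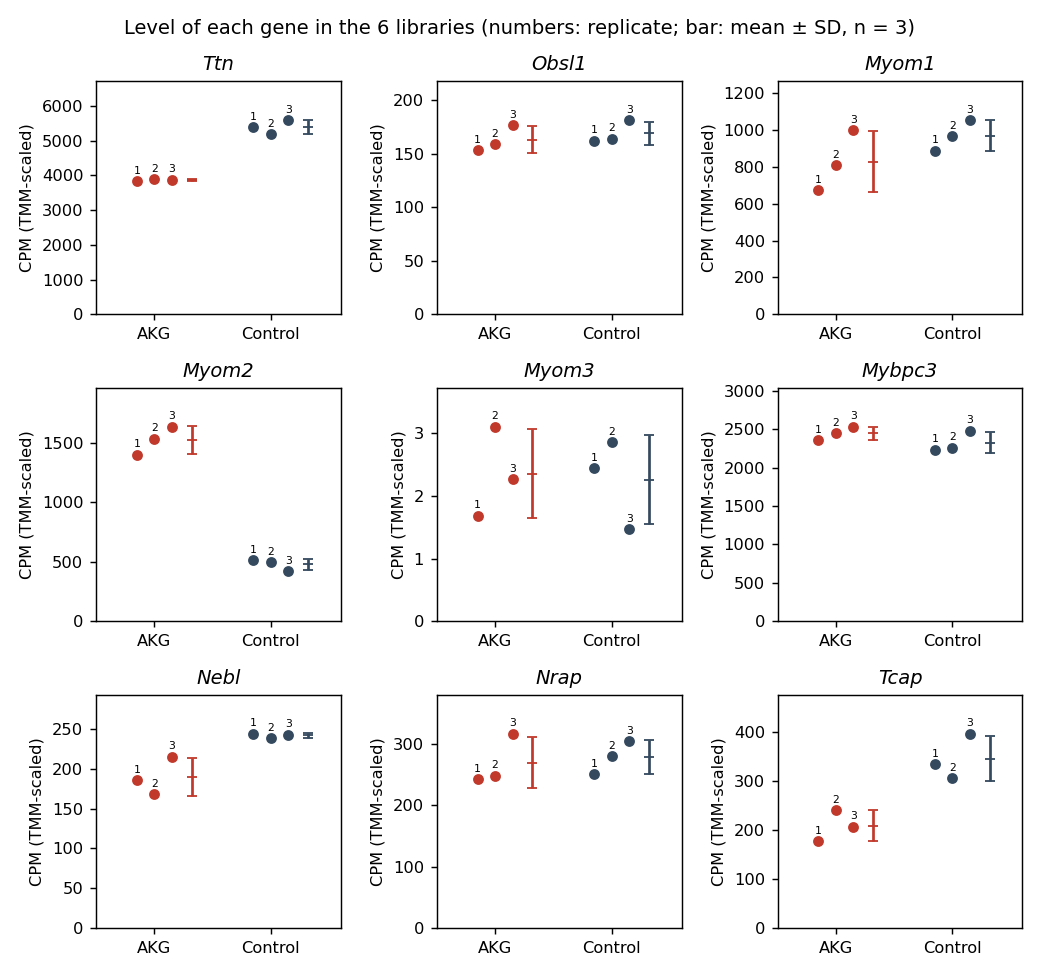
Level of each of the 9 genes in CPM (TMM-scaled, linear axis from 0) in the 3 AKG libraries, left, and the 3 Control libraries, right. Points are libraries numbered by replicate, and bars give mean ± SD (n = 3). The groups do not overlap for Myom2, which is above Control in AKG, nor for Ttn, Nebl and Tcap, which are below Control at this scaling.

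Myom2 encodes M-protein (myomesin 2), a cross-linker of the M-band of fast and adult cardiac fibres. It stood at 1403, 1537 and 1637 CPM in AKG 1, 2 and 3 and at 513, 498 and 423 CPM in Control 1, 2 and 3. Every AKG library lay far above every Control library. The means were 1525 ± 117 CPM in AKG and 478 ± 48.0 CPM in Control (SD, n = 3), a 3.19-fold difference with a log2 fold change of 1.67 (SE 0.101, edgeR quasi-likelihood adjusted p = 4.13e-08). It exceeded 98.3% of tested genes in log2 fold change. On library totals the log2 fold change of Myom2 was 2.12, and leaving out each library in turn gave 1.59 to 1.74.

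Myom1, the myomesin found in all striated muscle, was not called. It stood at 674, 807 and 1000.5 CPM in AKG and at 888, 966 and 1054 CPM in Control. The groups overlap, since AKG 3 lay within the Control range and AKG 1 and AKG 2 lay below it. Its log2 fold change was -0.23 (SE 0.131, edgeR quasi-likelihood adjusted p = 0.167). With each library left out in turn it ranged from -0.38 without AKG replicate 3 (adjusted p = 0.00451) to -0.09 without AKG replicate 1 (adjusted p = 0.514). With all 6 libraries and the replicate number as a block it was -0.24 (adjusted p = 0.0428), so the call on Myom1 changed with the libraries kept and with the model. On library totals it was 0.22 (adjusted p = 0.216).

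Myom3, the third myomesin gene, which is known from intermediate fibres of skeletal muscle, was barely present. It had 30, 50 and 41 counts in AKG and 36, 46 and 20 counts in Control, or 1.69 to 3.11 and 1.47 to 2.86 CPM, and the groups overlapped widely. The SE of its log2 fold change (0.04) was 0.315, and no difference was detectable with these counts and this spread between libraries (edgeR quasi-likelihood adjusted p = 0.919).

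Per transcript length, Myom2 and Myom1 changed places. FPKM (fragments per kilobase of transcript, scaled to the library total, as deposited by the authors) divides by length and so can be compared between genes, and a ratio taken within a library does not depend on how libraries are scaled. The FPKM ratio of Myom2 to Myom1 was 2.19, 2.01 and 1.73 in AKG 1, 2 and 3 and 0.608, 0.543 and 0.423 in Control 1, 2 and 3. All AKG ratios lay above 1 and all Control ratios below it. Myom2 made up 66.2 ± 2.67% of the summed myomesin FPKM in AKG and 34.2 ± 4.12% in Control (SD, n = 3). The two-sided exact permutation test gave p = 0.1, which is as low as 3 libraries against 3 can go. Myom3 held 0.0926 ± 0.0262% of it in AKG and 0.147 ± 0.0472% in Control (exact permutation p = 0.2). This ratio and these shares were chosen after values had been seen.

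**Figure D2:**
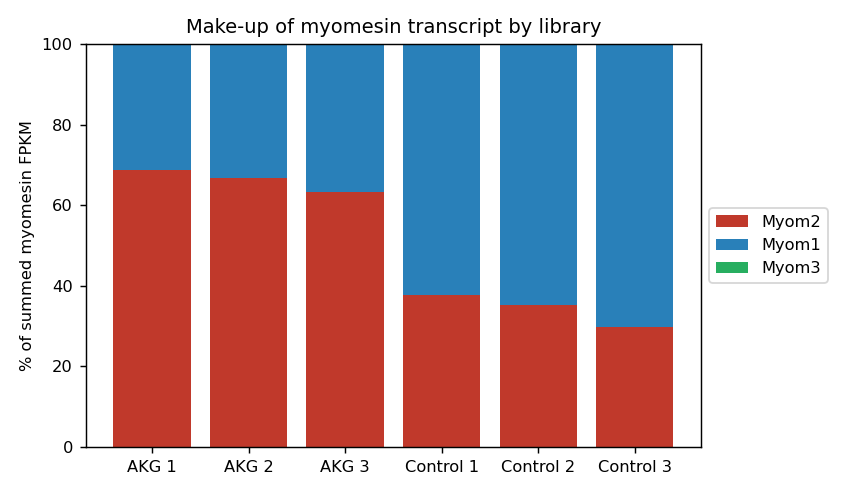
Share of each myomesin gene in the summed FPKM of Myom1, Myom2 and Myom3 (% of that sum, linear axis from 0 to 100), 1 bar per library, AKG libraries left of Control libraries. Myom2 holds 63.3% to 68.6% in the AKG libraries and 29.7% to 37.8% in the Control libraries, and Myom3 is too low to be seen.

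Ttn gave the largest number of counts among the 9 genes, 62633 to 69896 per AKG library and 76081 to 83673 per Control library. Its level was 3847, 3891 and 3878 CPM in AKG and 5391, 5197 and 5601 CPM in Control. The groups did not overlap, and the AKG values differed among themselves by far less than the gap to Control. The mean of Ttn was 3872 ± 22.8 CPM in AKG and 5396 ± 202 CPM in Control (SD, n = 3). Relative to the bulk of genes Ttn fell by 0.48 on the log2 scale (SE 0.094, edgeR quasi-likelihood adjusted p = 0.000834), while on library totals the log2 fold change was -0.03 (adjusted p = 0.757). In FPKM, which is scaled to the library total, Ttn stood at 63.0 ± 1.78 in AKG and 62.6 ± 1.71 in Control (SD, n = 3).

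Start regions were read for members present in the RefSeq promoter table (GRCm38.p6), which matched 7 of the 9 genes with 10 windows, and Myom2 and Tcap are not among them. Only the 250 bases before each annotated start were used. A match to the consensus of MEF2, a family of transcription factors of muscle genes, searched on both strands, was found for Ttn, Myom3 and Mybpc3, beside 2.92% of 32851 windows of the same length. These 3 windows are shown because they share the match while the levels of their genes in AKG run from 0.49 to 687 FPKM. They run 5′ to 3′ on the gene's strand, with the match in capitals.
Ttn, chr2:76982548-76982797, minus strand: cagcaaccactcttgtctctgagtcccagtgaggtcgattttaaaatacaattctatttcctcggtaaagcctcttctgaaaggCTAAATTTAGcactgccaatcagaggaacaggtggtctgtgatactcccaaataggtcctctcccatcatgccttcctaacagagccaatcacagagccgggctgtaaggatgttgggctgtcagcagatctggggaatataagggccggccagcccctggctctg
Myom3, chr4:135759465-135759714, plus strand: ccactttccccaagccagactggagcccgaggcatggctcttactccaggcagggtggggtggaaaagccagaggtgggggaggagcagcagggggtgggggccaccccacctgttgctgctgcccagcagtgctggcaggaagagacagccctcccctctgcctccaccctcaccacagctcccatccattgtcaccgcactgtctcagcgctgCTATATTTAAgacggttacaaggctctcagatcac
Mybpc3, chr2:91117894-91118143, plus strand: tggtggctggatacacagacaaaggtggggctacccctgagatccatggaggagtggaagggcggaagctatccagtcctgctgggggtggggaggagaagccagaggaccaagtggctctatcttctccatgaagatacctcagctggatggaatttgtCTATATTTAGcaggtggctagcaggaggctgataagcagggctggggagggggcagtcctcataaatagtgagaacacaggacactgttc
The first base of the match lies 166 bases before the start of Ttn, 35 before that of Myom3 and 90 before that of Mybpc3. The GATA motif AGATAA, searched on both strands, occurred in windows of Myom1 and Nebl, beside 9.99% of all windows. The MCAT motif CATTCC, also on both strands, occurred in a window of Nebl, beside 12.6% of all windows. A match is a description of letters in these windows and not a binding site.

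Tcap encodes telethonin, the small protein that ties titin ends together in the Z-disc. It stood at 177, 240.1 and 206 CPM in AKG and at 334, 306 and 396 CPM in Control. All AKG libraries lay below all Control libraries. Tcap fell by 0.73 on the log2 scale (SE 0.123, edgeR quasi-likelihood adjusted p = 0.000472), and by 0.29 on library totals (adjusted p = 0.0303). With TMM scaling 11.1% of tested genes had a lower log2 fold change. Its mean was 208 ± 31.6 CPM in AKG and 345 ± 46.3 CPM in Control (SD, n = 3).

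Nebl, the nebulette gene, stood at 186, 169 and 215 CPM in AKG and at 244, 239 and 243 CPM in Control. The Control libraries were nearly level, and the AKG libraries were spread but all lower. Nebl fell by 0.35 on the log2 scale relative to the bulk of genes (SE 0.0903, edgeR quasi-likelihood adjusted p = 0.0055), while on library totals its log2 fold change was 0.10 (adjusted p = 0.432). The groups did not overlap in CPM for 4 of the 9 genes (Myom2, Ttn, Tcap and Nebl), beside 59.2% of all tested genes.

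Mybpc3, whose product is the cardiac form of myosin-binding protein C, had the highest level per length of the 9 genes in both groups. In CPM it stood at 2365, 2455 and 2535.5 in AKG and at 2236, 2262 and 2485 in Control, and the groups overlapped. The log2 fold change was 0.08 (SE 0.0914, edgeR quasi-likelihood adjusted p = 0.519), and 0.52 on library totals (adjusted p = 0.000168). Neither value lay far from the median of all genes under its own scaling, 0.0029 and 0.45.

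Nrap and Obsl1 also lay near the median of all genes. Nrap stood at 243 to 318 CPM in AKG and 251 to 305 CPM in Control, with a log2 fold change of -0.05 (edgeR quasi-likelihood adjusted p = 0.737). Obsl1 ranged from 153 to 177 CPM in AKG and from 162 to 182 CPM in Control, with a log2 fold change of -0.05 (adjusted p = 0.613). On library totals the values were 0.40 for Nrap and 0.39 for Obsl1, both called higher (adjusted p = 0.0164 and 0.00218).

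**Figure D3:**
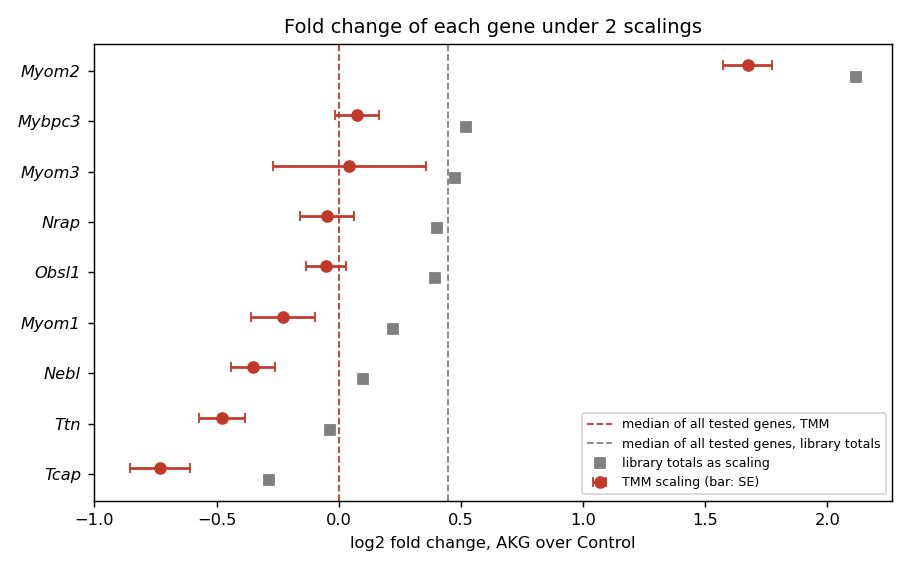
Log2 fold change, AKG over Control, of the 9 genes with TMM scaling (circles, bars give the SE) and with library totals as the scaling (squares). Dashed lines give the median of all tested genes under each scaling, 0.0029 and 0.45. Myom2 lies above both lines and Tcap below both, Ttn and Nebl lie below the line of their scaling, at -0.03 and 0.10 on library totals. Mybpc3, Myom3, Nrap and Obsl1 lie close to the line.

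Within a library the count of each gene can be set against that of Ttn, which removes the choice of scaling. Relative to Ttn, Myom2 was higher in AKG by 2.15 on the log2 scale, or 4.45-fold. For Mybpc3 the difference was 0.55 (1.47-fold), for Obsl1 0.42 and for Nrap 0.42. Ttn itself had a TMM-scaled log2 fold change of -0.48, so a gene level with the bulk of genes gains against Ttn by about that size. On that scale Mybpc3, Obsl1 and Nrap had 0.08, -0.05 and -0.05. For Mybpc3, Obsl1 and Nrap, unlike Myom2, the groups overlapped in CPM. Relative to Ttn all 3 AKG libraries lay above all Controls for Myom2, Mybpc3, Obsl1 and Nrap. How many of all genes do so was not counted, so the separation is not read as a result about these genes. The exact two-sided permutation p was 0.1 for each of the 4, the smallest possible, and 0.2 after Benjamini-Hochberg adjustment over 8 ratios, so none can pass 0.05 in this design. Myom1 (0.23), Myom3 (0.55) and Nebl (0.12) had groups that overlapped, with exact permutation p of 0.3, 0.3 and 0.4. Tcap had a difference of -0.26 (exact permutation p = 0.2), with AKG 1 and AKG 3 below all Controls. Leaving out 1 library moved some of these differences by over 1.5 times. Myom1 was at 0.089 without AKG 3 and 0.37 without AKG 1, and Nebl at 0.028 without AKG 3 and 0.21 without AKG 2. Myom3 was at 0.24 without Control 3 and 0.33 without AKG 2, and Tcap at -0.15 without AKG 1.

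**Figure D4:**
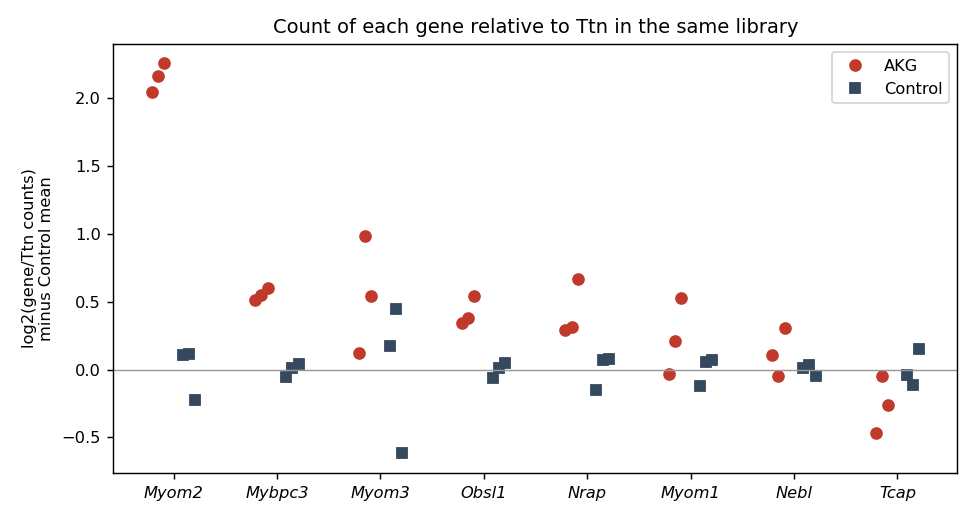
Count of each gene divided by the count of Ttn in the same library, as log2 relative to the Control mean of that gene. Circles are the 3 AKG libraries and squares, to their right, the 3 Control libraries. Myom2 stands about 2.15 above Control, Mybpc3, Obsl1 and Nrap stand above all Controls, and Tcap lies lower with overlap. In CPM the groups overlap for Mybpc3, Obsl1 and Nrap, and Ttn itself had a TMM-scaled log2 fold change of -0.48.

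By FPKM the order of the genes in AKG was Mybpc3 (687 ± 47.9), Myom2 (351 ± 37.6), Tcap (255 ± 34.3), Myom1 (181 ± 41.6), Ttn (63.0 ± 1.78), Nrap (59.5 ± 11.5), Nebl (44.8 ± 8.02), Obsl1 (42.0 ± 6.57) and Myom3 (0.49 ± 0.136). In Control it was Mybpc3 (479 ± 28.3), Tcap (311 ± 33.1), Myom1 (156 ± 15.04), Myom2 (80.9 ± 9.89), Ttn (62.6 ± 1.71), Nrap (44.9 ± 5.04), Nebl (39.7 ± 1.73), Obsl1 (31.9 ± 0.908) and Myom3 (0.35 ± 0.122). Myom2 ranked 2 in AKG and 4 in Control, with Tcap and Myom1 each a place lower in AKG, and the other genes kept their rank. Neighbours whose ranges overlapped, and so did not differ beyond their spread, were Tcap and Myom1, Ttn and Nrap, Nrap and Nebl, and Nebl and Obsl1 in AKG, and Nrap and Nebl in Control.

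Within a group the number of the 9 genes above the group mean differed between libraries. In AKG 3, 8 of the 9 lay above the AKG mean of log2 CPM, in AKG 2 5 of 9, and in AKG 1 all lay below it. Tcap and Ttn lay barely above it in AKG 3, by 0.00076 and 0.0024. Deviations from a group mean cancel out over its libraries, so those libraries are not independent here. The share of all tested genes above the mean was not counted. In Control 3, 7 of 9 lay above the Control mean, against 3 of 9 in Control 1 and 3 of 9 in Control 2. AKG 3 was also the AKG library with the lowest mitochondrial share, 25.7% of counts, whose part in these deviations was not tested. The median deviation was 0.10 in AKG 3 and -0.12 in AKG 1, far less than the log2 fold change of Myom2 but larger than that of Nrap or Obsl1. Together the 9 genes held 1.11 ± 0.0916% of all counts in AKG and 0.875 ± 0.0357% in Control (SD, n = 3; exact permutation p = 0.1, two-sided). Among counts outside the mitochondrial genome they held 1.504% to 1.64% in AKG and 1.45% to 1.52% in Control, ranges that overlap.

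The deposited table also carries a value that the counts alone do not show. Dividing a gene's count by its FPKM and by the library total gives the transcript length behind the FPKM. For Tcap this was 948 nt in 6 of 6 libraries to within 0.1 nt, the length of its single transcript in the GENCODE M21 annotation, and for Myom2 it was 5075 nt, the length of its longest transcript there. The sources used here do not state the authors' rule for this length. For Ttn the implied length was 69751, 71384 and 73926 nt in AKG and 74019, 73762 and 73951 nt in Control (GENCODE M21 lists 25 Ttn transcripts, up to 106824 nt). AKG 1 and AKG 2 were shorter than all Controls and AKG 3 was not, so the groups overlap.

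Nebl had implied lengths of 4904, 5063 and 4932 nt in AKG and 5355, 5210 and 5117 nt in Control, means that differ by -4.99% without overlap. GENCODE M21 lists 13 transcripts of this locus, of 335 to 8079 nt. Of 3419 genes with at least 500 counts and an FPKM of at least 5 in each library, 22.1% had implied lengths that did not overlap between the groups and means at least 1% apart, so such a difference is common in this table. For Mybpc3 and Myom2 the implied length varied by 0.0249% and 0.0105% over the 6 libraries, and for Myom1 by 0.639%, its AKG values lying above its Control values by 0.271% in the mean. Obsl1 varied by 9.01% with groups that overlap. These lengths were examined after values had been seen and were not tested.

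**Figure D5:**
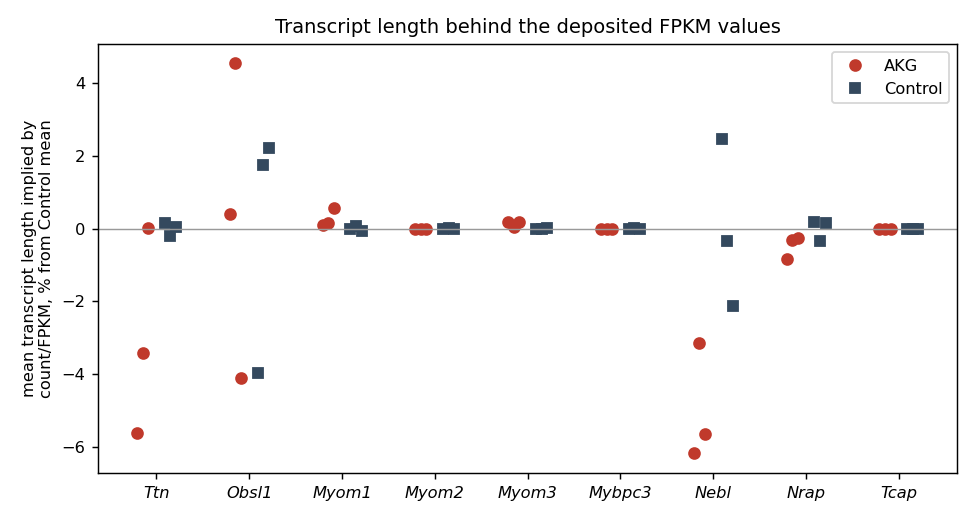
Mean transcript length implied by the deposited counts and FPKM, as % difference from the Control mean of each gene. Circles are AKG libraries and squares, to their right, Control libraries. Tcap, Myom2 and Mybpc3 vary by at most 0.0249%, Nebl is shorter in all 3 AKG libraries, and Ttn is shorter in AKG 1 and AKG 2 but not in AKG 3.

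In the authors' deposited table the log2 ratio of mean FPKM for Ttn was 0.0096 with a false discovery rate of 1.46e-11. For Nebl the same table holds a ratio of 0.17 on the log2 scale with a false discovery rate of 0.00154. In the authors' deposited table Myom2 had a log2 ratio of 2.12 and Tcap one of -0.29, and Mybpc3 had 0.52 with a false discovery rate of 0.46. The deposited ratio of Nebl is thus above 0 while the TMM-scaled fold change of the counts is below 0. DESeq2 on the counts gave a log2 fold change of -0.47 for Ttn (DESeq2 adjusted p = 1.33e-11) and -0.34 for Nebl (0.00136). The deposited rates of Ttn and Nebl are thus close to those of a count test in which both were lower. They are not to be read as rates of the FPKM ratios beside them.

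Partners of these proteins were read from 3 lists, which share 5 genes and were chosen with earlier results of these data known. Of 20 tested titin and M-band partners, 6 were called higher and 10 lower, with a median log2 fold change of -0.26, and 10 and 8 on library totals. Over all tested genes 25.0% were called higher and 25.2% lower, and 56.7% and 9.12% on library totals. Speg, a striated muscle kinase, stood at 159 ± 7.31 CPM in AKG and 503 ± 54.2 CPM in Control (SD, n = 3; edgeR quasi-likelihood adjusted p = 2.31e-08). Ankrd23, a titin-binding ankyrin repeat protein, fell by 1.37 on the log2 scale, and its relative Ankrd1 rose by 1.62 (edgeR quasi-likelihood adjusted p = 3.26e-08 and 4.13e-08). Mylk3, the cardiac myosin light chain kinase, rose by 0.91 (adjusted p = 1.13e-06). These 4 kept their direction on library totals.

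Of 11 tested genes of the thick filament and its assembly, 2 were called higher and 4 lower, with a median log2 fold change of -0.15 (7 and 4 on library totals). The shares over all genes were 25.0% and 25.2% (56.7% and 9.12% on library totals). The 7 include Mybphl, which had at most 7 counts in a Control and passed the filter through AKG, so its call carries no weight as a count. The slow myosin gene Myh7 stood at 1707 ± 258 CPM in AKG and 21.03 ± 2.13 CPM in Control, and the adult myosin gene Myh6 at 12427 ± 1768 CPM in AKG and 27743 ± 1091 CPM in Control (SD, n = 3; edgeR quasi-likelihood adjusted p = 1.65e-11 and 7.4e-06). Myh7 had 26017 to 34849 counts in AKG, beside 185614 to 248844 of Myh6, and 281 to 332 counts in Control, beside 393926 to 435133 of Myh6. These genes are paralogs, and how the counting divided reads between them was not tested. Mybpc2, the fast skeletal relative of Mybpc3, fell by 1.07 on the log2 scale at a low level (9.39 ± 0.988 CPM in AKG, 19.7 ± 1.07 CPM in Control, edgeR quasi-likelihood adjusted p = 6.64e-06). Myh6 fell by 1.16 on the log2 scale and by 0.71 on library totals, beside the 0.08 and 0.52 of Mybpc3.

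Of 21 tested genes of the Z-disc, the nebulin family and the thin filament ends, 7 were called higher and 9 lower, with a median log2 fold change of -0.14 (11 and 3 on library totals). The shares over all genes were again 25.0% and 25.2% (56.7% and 9.12% on library totals). Synpo2l, a Z-disc actin-binding protein, rose to 257 ± 24.1 CPM in AKG, against 129 ± 5.87 CPM in Control (SD, n = 3; edgeR quasi-likelihood adjusted p = 7.86e-07). Csrp3, the muscle LIM protein of the Z-disc, fell by 0.83 on the log2 scale (adjusted p = 3.55e-06). The leiomodin gene Lmod3 and the PDZ-LIM gene Pdlim5 fell by 0.67 and 0.71 relative to the bulk of genes (adjusted p = 2.34e-05 and 0.000138), while on library totals neither was called (adjusted p = 0.0774 and 0.0656).

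The genes most like a member were those with the smallest root mean square distance between log2 CPM profiles, each centred on its own mean over the 6 libraries, among 8744 genes of mean CPM 10 or more. For Myom2 these were Ankrd1 (distance 0.0788), the phospholipase C gene Plcd3 (0.0832) and Pik3ip1 (0.0841), with log2 fold changes of 1.62, 1.75 and 1.68. For Tcap the nearest were the water and glycerol channel gene Aqp7 (0.0417) and Nt5m (0.0700). For Myom3, the member with the smallest change, they were Helb, Nectin2 and Nop16, at larger distances of 0.177 to 0.19. The distances are descriptions over 6 libraries that form 2 groups, and they carry no test.

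Of the 9 genes, Mybpc3, Myom3 and Tcap overlap no other gene in GENCODE M21. Ttn, Nebl and Nrap overlap annotated antisense genes that are not among the rows of the deposited table, Gm13938, Gm13324 and Gm17197. The same holds for the lincRNA Gm26561, which lies on the strand of Myom1 and overlaps it over 124224 bases, for the processed pseudogene Gm15678 opposite Myom2 and for Mir6419 opposite Nebl. The counted genes Tmem198, Myl12a and Habp2 overlap Obsl1, Myom1 and Nrap on the opposite strand. Tmem198 had 12 to 13 counts in AKG and 11 to 17 in Control, and Habp2 25 to 34 in AKG and 15 to 28 in Control. Myl12a had 3990 to 4256 counts in AKG and 4952 to 5570 in Control and overlaps Myom1 over 246 bases. Use of strand in counting is not stated in the sources used here, so reads of pairs on opposite strands may not be told apart, and strand could not separate Gm26561 from Myom1.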

How the data were processed

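The authors deposited 1 table holding, for each gene, a count and an FPKM in every library. The counts are whole numbers, and in 60 places a count of 0 has an FPKM above 0. The deposited log2 fold change is the ratio of group means of FPKM, with the authors' p-value and false discovery rate. Per the submitters' processing notes HISAT2 2.1.0, RSEM 1.2.19 and DESeq2 1.20.0 were used. Their roles, the genome build and the annotation are not given in the sources used here.

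The deposited counts were tested with edgeR 4.0.16 (R 4.3.3): filterByExpr (minimum count 10, minimum total 15), TMM scaling, and the quasi-likelihood test with robust dispersion estimates, with Benjamini-Hochberg adjustment over all 13117 tested genes and a threshold of 0.05. The procedure was tested on simulated data. An SE is |log2 fold change| over the root of F. Alternatives used DESeq2 1.42.0 and limma 3.58.1. Partner lists were described by counts and medians, with no set test. All 9 genes were named whatever they did, with up to 4 genes of smallest p per partner list, Myh6, Myh7 and nearest profiles; 1 gene that this rule names is not reported here. The members and lists were chosen with earlier results of these data known. Replicates of a group differed by more than sampling noise.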

Additional observations from a re-analysis of the deposited data

How the results depend on the processing

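Genes called higher numbered 3281 with TMM and 7431 on library totals, 6722 with limma on log2(FPKM + 1), 6709 with a pseudocount of 0.1 and 7003 without the filter, and genes called lower 3309, 1196, 1075, 1070 and 1173 in the same order. Among the 9 genes, 4 were called higher in the first 3 of these alternatives and 3 in the last, and 1, 1, 1 and 0 lower. Myom3 did not reach the limma filter (an FPKM of at least 1 in 3 libraries), so it was not tested in the filtered limma settings. Beside this 0 from limma, 1 passed at an unadjusted p under 0.05, Tcap having an adjusted p of 0.0723, while edgeR and DESeq2 each called 3. Direction reversed on library totals for Obsl1 (0.39), Myom1 (0.22), Nebl (0.10) and Nrap (0.40). With limma on FPKM + 1, FPKM + 0.1 and FPKM + 1 without a filter, it reversed for Ttn (0.0094, 0.0095 and 0.0094), Obsl1 (0.38 in all 3), Myom1 (0.19, 0.20 and 0.19), Nebl (0.16 in all 3) and Nrap (0.39 in all 3). These settings are scaled to library totals, and the median of all genes moved by 0.20 to 0.45.

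With libraries left out in turn, genes called higher numbered 2751 to 3296 and lower 2845 to 3243, and members called higher 1 and lower 3 to 4. Myom3 ranged from -0.19 to 0.25 and Nrap from -0.18 to 0.030, neither called. DESeq2, DESeq2 size factors in edgeR, no low-count filter and removal of mitochondrially encoded genes gave 1 member higher and 3 lower. Log2 ratios to Ttn ranged, with each library left out, from 2.04 to 2.21 for Myom2, 0.53 to 0.58 for Mybpc3, 0.36 to 0.46 for Obsl1, 0.30 to 0.49 for Nrap, 0.089 to 0.37 for Myom1, 0.24 to 0.77 for Myom3, 0.028 to 0.21 for Nebl and -0.36 to -0.15 for Tcap. Replicate numbers are shared by the groups, but deviations of same-numbered libraries correlated at 0.195, -0.0512 and 0.0596, and not every library correlated best with its own number. With the replicate number as a block 3257 genes were called higher and 3314 lower, with 1 and 4 of the 9 genes, the added one being Myom1 (log2 fold change -0.24, adjusted p 0.0428 in edgeR). Myom3 had 20 to 50 counts per library.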

Other observations

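Markers of other cell types in these preparations are given as values. Their counts stand beside 25.0% of all tested genes called higher and 25.2% lower (56.7% and 9.12% on library totals). Of 10 fibroblast markers 3 were called higher and 3 lower (edgeR's quasi-likelihood test, all genes; 4 and 1 on library totals), with a summed level of 2963 to 3974 CPM in AKG and 2965 to 3788 CPM in Control. Endothelial markers were split in the same way, 3 higher and 3 lower of 10 (7 higher on library totals), at 2215 to 2789.7 CPM in AKG and 2422 to 2648 CPM in Control. Of 10 smooth muscle and pericyte markers 1 was called higher and 6 lower (3 and 2 on library totals), at 2263 to 2476 CPM in AKG and 3331 to 3482 CPM in Control; Des, on this list, is also expressed by heart muscle cells. Of 10 macrophage markers 5 were called lower (3 lower and 1 higher on library totals), at 94.4 to 122 CPM in AKG and 144 to 221 CPM in Control. The 8 neutrophil markers summed to 7.53 to 14.5 CPM in AKG and 2.17 to 2.65 CPM in Control; 5 of them were tested and called higher, of which Ngp, S100a9, Ltf and Mmp9 stood at 0.155 to 0.292 CPM in Control and passed the filter through AKG, so their calls carry no weight as a count. Among 12 fast skeletal markers Mybpc2, Ckm and Tnni2 passed the filter, and all 3 were called lower; Ckm is a heart gene too. Among 4 tested atrial markers Nppa was called higher (3 on library totals, with Mybphl and Myl4), at 558 ± 142 CPM in AKG and 120 ± 29.6 CPM in Control (SD, n = 3). Mybphl had 254, 10 and 217 counts in AKG and 7, 4 and 2 in Control. It passed the filter through AKG, so its call carries no weight as a count. Myl4 had 2106, 90 and 1350 counts in AKG and 102, 81 and 74 in Control, so AKG 2 lay within the Control range.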
